A study of Tetranychus urticae with 8 samples.

Results

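A set of 89 genes of the spider mite Tetranychus urticae gave RNA sequencing reads in every library of adult males and almost none in adult females. The members were chosen by their read counts, out of 17654 gene IDs in the table. To be a member, a gene needed 10 or more reads in each of the 4 male libraries, at most 3 reads summed over the 4 female libraries, an ID that ended in 0, and an ID that did not begin with tetur09. Without the 2 conditions on the ID the same limits held for 165 genes, of which 61 had IDs beginning with tetur09 and 16 had IDs not ending in 0, with 1 gene in both groups. Since the counts of males and females chose the members, the difference between the sexes in these genes is given as a description, with no test.

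The males were whole adult animals of the strain London, aged 1 to 2 days and pooled at about 800 per library, with replicates 1 to 4. The females were whole adults of the same strain, aged 3 days and pooled at about 200 per library, also with replicates 1 to 4. Both were kept on cut leaves of common bean, and poly(A) RNA was sequenced with a protocol that preserves the strand. Age and pool size went with sex in every library, so neither can be told apart from sex.

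Spider mites are haplodiploid: unfertilized eggs give haploid males and fertilized eggs give diploid females. Adult males are smaller than females, search for females that are about to moult, guard them and mate with them at emergence. In many animals the transcripts found in whole males and not in whole females come largely from the testis and the glands of the male reproductive tract. The deposited file carries no gene names and no sequences, and 0 of its IDs occurred in the RefSeq gene table of the species (assembly NJAU_TeUrti_SD_1.0), so no function is given for any gene here. In whole bodies, fewer cells of a type and less RNA per cell cannot be told apart.

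Reads assigned to genes numbered 12082575 to 21414612 per male library and 12912850 to 17443223 per female library. Levels are in CPM, the counts of a gene relative to the total of its library, after TMM normalization (the trimmed mean of M values). They are not divided by gene length, which is not given, so they order genes by their share of reads and not by the number of transcripts. A limit of 3 reads corresponded to 0.0520 CPM over the 4 female libraries together, and to 0.142 to 0.248 CPM in a single library of either sex. These limits cover counting error only.

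The 89 genes together had 16340, 25108, 14677 and 17745 reads in male replicates 1 to 4, against 36, 24, 27 and 28 reads in female replicates 1 to 4. After scaling, the summed level of the set reached 1184 ± 28 CPM in the male pools, while the female pools gave 1.99 ± 0.10 CPM (SD, n = 4 each). They took 0.118% of all male reads on genes. Of the 89, 29 had 0 female reads, 23 had 1, 19 had 2 and 18 had 3. In single female libraries 29, 21, 26 and 23 of the 89 had a read, so the 115 female reads were spread over all 4 pools.

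Within the set the male level spanned more than 2 orders of magnitude on the log10 scale, from a mean of 0.834 to 143 CPM. The median was 4.73 CPM and the quartiles were 1.66 and 12.8 CPM. There were 25 members under 2 CPM, 36 between 2 and 10 CPM, and 28 at 10 CPM or more, of which 3 exceeded 100 CPM. The single most abundant member held 12.1% of the summed male level of the set, the first 5 held 44.7% and the first 10 held 58.6%.

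**Figure D1:**
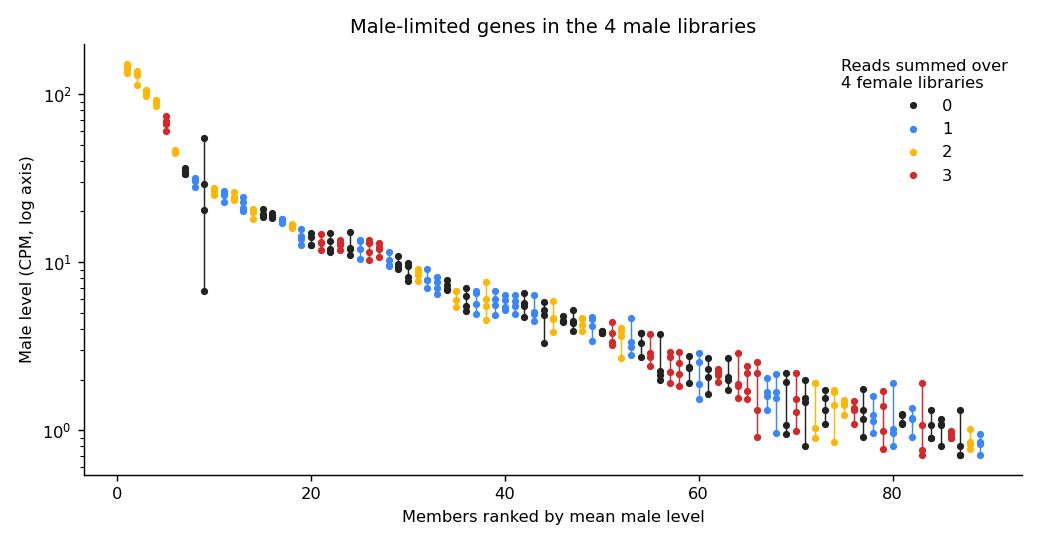
Level of each of the 89 members in the 4 male libraries (CPM, log axis), ranked by the male mean. Points are libraries, vertical lines join the lowest and highest library, and colours give the reads summed over the 4 female libraries. The first 5 members lie above 60 CPM in every male library, and the member ranked 9, tetur08g00240, is the one whose male libraries lie far apart.

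The most abundant member was tetur02g06500, with 1837, 3098, 1836 and 2176 reads in male replicates 1 to 4, against 1, 1, 0 and 0 reads in female replicates 1 to 4. Its male level was 143 ± 8 CPM (SD, n = 4), and the ratio of the male to the female level was 4136 (95% exact counting interval 1145 to 34155). The width of that interval comes from the 2 female reads. The next was tetur01g04980, with 1822, 2741, 1363 and 2122 reads in males and 0, 0, 0 and 2 in females. Its male level was 128 ± 11 CPM, and the ratio was 3720 (1030 to 30724).

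The next 2 members in order of male level also had 2 female reads each. The gene tetur07g03170 stood at 102 ± 3 CPM in males, with 1224 reads in its lowest male library, and at a ratio of 2949 (816 to 24357). The gene tetur01g06810 had 1230, 1947, 1087 and 1311 reads in males and 1, 1, 0 and 0 in females, which gave 89.1 ± 3.2 CPM in males and a ratio of 2577 (713 to 21285). The 4 intervals overlap, so these genes are not ranked by their ratio.

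Of the next 6 members, 4 had female reads and 2 had none. The gene tetur23g01500 stood at 67.3 ± 5.6 CPM in males with 3 female reads, and tetur02g06490 at 45.3 ± 0.7 CPM with 2. The gene tetur01g06750 stood at 30.2 ± 1.6 CPM with 1 female read, and tetur05g09260 at 26.5 ± 1.0 CPM with 2. The gene tetur01g06790 had 494, 705, 405 and 539 reads in male replicates 1 to 4 and 0 in each female library. Set against the limit of 3 reads over the 4 female libraries, this gives a male level at least 660-fold higher. The gene tetur08g00240, the most uneven of the set, had a male level at least 491-fold higher by the same limit and is described with the spread among pools.

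Over the whole set the ratio of the male to the female level, or its lower bound where no female read was found, ranged from 16.3 to 4136 with a median of 131. Of the 89, 37 reached a ratio or bound of 200. The lower end of this range came from members with few male reads, for which a limit of 3 female reads cannot show a larger difference. In the fit over all genes with edgeR's quasi-likelihood test, 88 members could be tested and 88 were called higher in males at an adjusted p below 0.05 and a fold of at least 2. The rule used this contrast, so nothing is read from that count, beside 30.5% of all tested genes called higher in males. Their median fitted log2 fold change, male minus female, was 7.77, or 6.82 with genes that had no female read set at their bound, against 0.05 over all 12885 tested genes. The gene tetur114g00040, with 11, 15, 16 and 11 reads in males and 0 in females, was the one member that the filter on low counts removed.

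The limits did not fall at a break in the data. Among the 11192 genes that met the male limit and had an ID of the same kind, the counts at 0, 1, 2 and 3 female reads were 29, 23, 19 and 18. At 4, 5, 6 and 7 female reads they were 12, 23, 24 and 22, and 138 genes had 4 to 10 female reads. The number of genes per added female read was thus of like size on both sides of the limit.

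**Figure D2:**
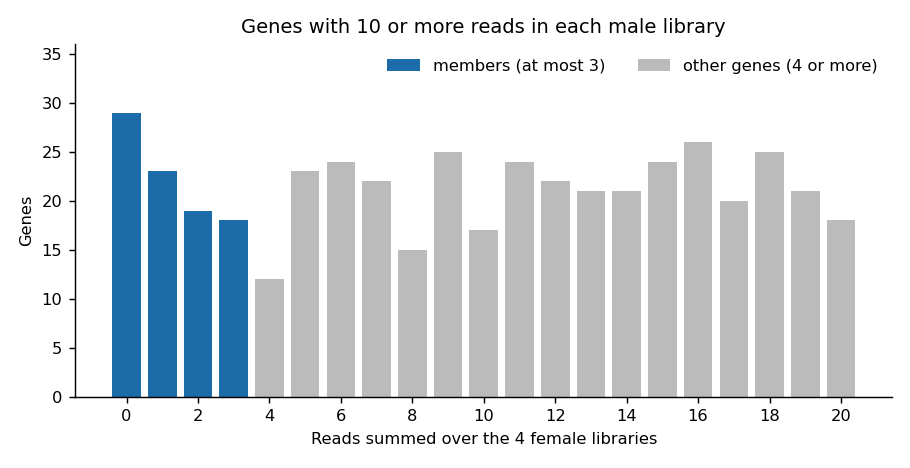
Number of genes (vertical axis) by the reads summed over the 4 female libraries (horizontal axis, 0 to 20), among genes that met the male limit, with an ID ending in 0 and not beginning with tetur09. Blue bars are the members and grey bars the genes just outside, which continue at 12 to 26 genes per read.

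At the male limit, 2 members had 10 reads in their lowest male library. The gene tetur03g02790 had 14, 18, 10 and 12 reads in males and 0, 1, 0 and 1 in females, and tetur08g04890 had 13, 18, 10 and 11 in males and 0, 1, 0 and 0 in females. Next came tetur05g00430, which had 18, 37, 11 and 18 reads in males and 0 in females. Just outside were 8 genes with 9 reads in their lowest male library and at most 3 in females. Among these, tetur01g06200 had 13, 10, 9 and 11 reads in males and 1, 0, 1 and 0 in females. The gene tetur04g05620 had 24, 21, 13 and 9 in males and 0 in females, and tetur06g01720 had 11, 33, 9 and 15 in males and 1, 0, 1 and 0 in females. The values of these genes were thus like those of the members next to them.

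A fixed limit of 3 female reads also bears on abundant genes. Members made up 2.79% of the 752 genes of the same kind with 1 to 2 CPM in males, 0.876% of the 1713 genes with 10 to 20 CPM, and 0.295% of the 1016 genes with 100 to 200 CPM. None of the 815 genes at 200 CPM or more was a member. Outside the set, 39 genes with more than 3 female reads had a ratio of at least 200, with male means from 15.5 to 18241 CPM and a median of 148 CPM. The set therefore leaves out abundant genes of equal or larger ratio.

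Members were found under 33 ID prefixes. In the naming of T. urticae genes the number after tetur stands for the scaffold, and IDs rise along it, but the file gives no positions, so only the order of IDs is used here. The prefix tetur01 held 10 members, tetur07 held 9, tetur02 held 8 and tetur05 held 7. These were 0.954%, 1.67%, 0.865% and 1.13% of the IDs that met the male limit under those prefixes, against 0.795% for all prefixes together. Of the 89, 25 had another member among the 5 IDs before or after them, and 15 stood directly next to one. The 25 formed 10 groups, with 5 members in the largest, 3 in each of 2 others and 2 in each of the remaining 7.

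The largest group lay in 10 consecutive IDs of the table, from tetur01g06710 to tetur01g06810. Its 5 members were tetur01g06710 at 13.5 ± 1.2 CPM in males, tetur01g06750 at 30.2 ± 1.6, tetur01g06790 at 34.4 ± 1.3, tetur01g06800 at 12.3 ± 1.4 and tetur01g06810 at 89.1 ± 3.2 CPM (SD, n = 4). Of the 5 IDs between them, 2 passed the filter on low counts, and both were called higher in males. The gene tetur01g06730 had 305, 553, 267 and 379 reads in male replicates 1 to 4, against 6, 3, 2 and 3 in female replicates 1 to 4. This gave a log2 fold change of 6.57 ± 0.17 (SE; adjusted p = 2.09e-14 by edgeR). The gene tetur01g06780 had 339, 484, 296 and 360 reads in males and 8, 2, 2 and 1 in females, with a log2 fold change of 6.67 ± 0.20 (SE; adjusted p = 1.04e-13 by edgeR). They missed the set by their female reads alone. The other 3 IDs had at most 6 reads in any library.

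Members and others of this stretch summed to 227 ± 6 CPM in males, against 0.899 ± 0.128 CPM in females. On either side of it the difference between the sexes was smaller or turned. The ID before it, tetur01g06700, stood at 81.5 ± 5.5 CPM in males and 67.2 ± 5.6 in females, a log2 fold change of 0.28, below the 2-fold minimum, and the ID before that, tetur01g06690, was called higher in males with a log2 fold change of 3.71. The ID after it, tetur01g06830, was called higher in females, with 66.6 ± 3.8 CPM in males and 163 ± 6 in females (log2 fold change -1.29; adjusted p = 5.47e-12 by edgeR).

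Under tetur02 the members tetur02g06490, tetur02g06500 and tetur02g06520 stood within 4 consecutive IDs, at 45.3 ± 0.7, 143 ± 8 and 4.52 ± 0.19 CPM in males. The fourth ID, tetur02g06510, had 0 reads in all 8 libraries. Both IDs that flank this stretch were called higher in males with few female reads. The gene tetur02g06480 had 2003, 3197, 1901 and 2137 reads in males and 0, 1, 2 and 3 in females, with 148 ± 8 CPM in males and a log2 fold change of 10.36 ± 0.16 (SE; adjusted p = 9.15e-17 by edgeR). The gene tetur02g06560 had 1420, 2330, 1433 and 1720 reads in males and 1, 1, 4 and 3 in females, and a log2 fold change of 9.40 ± 0.14 (SE; adjusted p = 1.03e-16 by edgeR). Beyond them, tetur02g06470 had 0 to 3 reads per library, and tetur02g06570 stood at 53.2 ± 0.8 CPM in males and 45.7 CPM in females and was not called.

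In the group under tetur05 the members tetur05g02370, tetur05g02390 and tetur05g02430 stood at 4.79 ± 1.08, 1.45 ± 0.49 and 1.40 ± 0.13 CPM in males. The 2 tested genes between them were expressed in both sexes and were not called: tetur05g02400 stood at 9.62 ± 0.93 CPM in males and 11.9 ± 0.8 in females, and tetur05g02410 at 5.19 ± 0.56 CPM in males and 5.39 CPM in females. After these 2, the ID tetur05g02420 had 3 reads in males and 0 in females and was not tested. Directly before the group, tetur05g02360 was called higher in males, with 97, 195, 119 and 127 reads in males and 8, 14, 13 and 6 in females (log2 fold change 3.57 ± 0.23, SE; adjusted p = 1.01e-09 by edgeR). The 2 IDs before that, tetur05g02340 and tetur05g02350, were called higher in females, with log2 fold changes of -1.60 and -1.23.

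**Figure D3:**
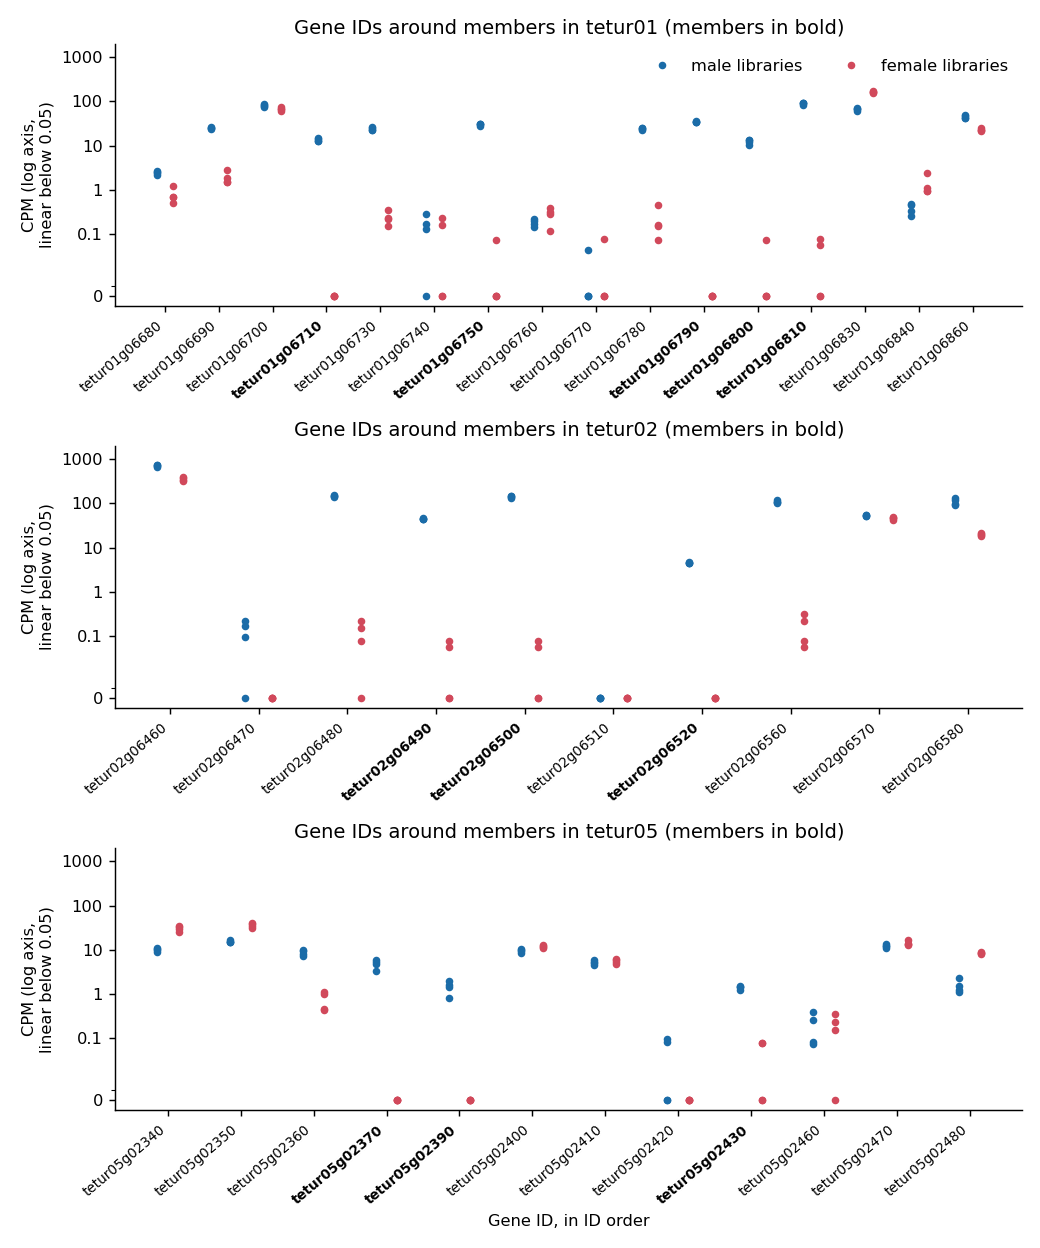
Levels in the 4 male libraries (blue, left) and the 4 female libraries (red, right) for consecutive gene IDs around the 3 largest groups of members, with member IDs in bold. The vertical axis is in CPM, logarithmic above 0.05 and linear below. In the tetur01 and tetur02 panels the male points of members and of the IDs tetur01g06730, tetur01g06780, tetur02g06480 and tetur02g06560 lie at least 10-fold above the female points, and in the tetur05 panel the points of tetur05g02400 and tetur05g02410, between members, lie close in the sexes while those of tetur05g02360 lie apart.

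The genes directly before and after members in ID order were examined with the members themselves left out. The rule therefore acts on this comparison too, since an adjacent gene that met the limits is a member and not counted as a neighbour, as for the 15 members that stood next to another. There were 152 such IDs, of which 111 could be tested. Of these, 41 (36.9%) were called higher in males and 24 (21.6%) higher in females, against 30.5% and 26.9% of all tested genes. Of the tested genes that were no members, 30.1% were called higher in males. The difference in shares was not tested, and with adjacent members left out it does not describe all genes next to a member. By single steps the share called higher in males was 43.6% of 55 genes on the side of lower IDs and 29.8% of 57 on the side of higher IDs, and from 21.4% to 38.7% at steps of 2 to 5 IDs.

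**Figure D4:**
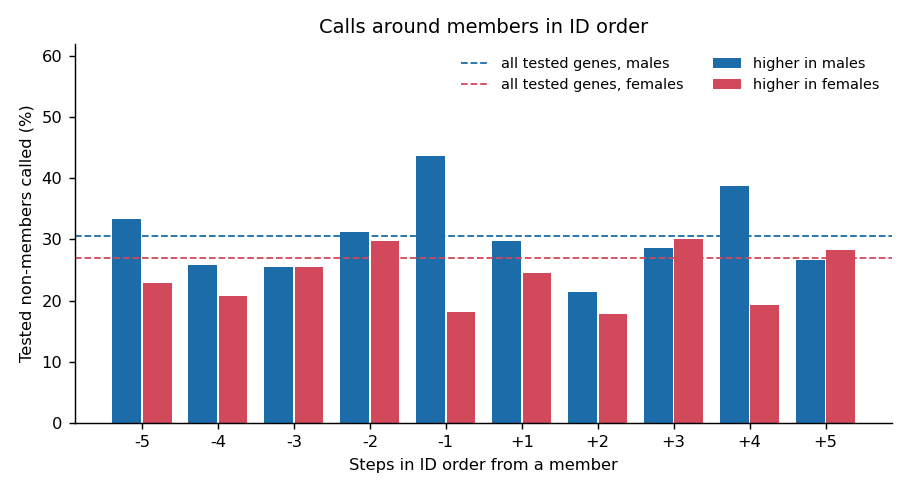
Share of tested genes (%) called higher in males (blue, left) and higher in females (red, right) at 1 to 5 steps in ID order before and after a member, members left out. Dashed lines give the shares over all tested genes, 30.5% for males and 26.9% for females. The bars lie on both sides of the lines.

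A few neighbours had differences close to those of the members themselves. A fitted log2 fold change of 4 or more towards males was found in 10 of the 111 tested neighbours (9.01%), against 3.81% of all tested genes and 3.16% of the tested genes that were no members. Besides the 4 already described in tetur01 and tetur02, the next were tetur01g04970 and tetur07g03160. The gene tetur01g04970, the ID before tetur01g04980, had 1921, 3316, 1607 and 2401 reads in males and 0, 1, 2 and 3 in females, with 146 ± 12 CPM in males and a log2 fold change of 10.35 ± 0.17 (SE; adjusted p = 1.91e-16 by edgeR). The gene tetur07g03160, the ID before tetur07g03170, had 1051, 1597, 941 and 1045 reads in males and 0, 3, 1 and 1 in females, with 74.4 ± 4.7 CPM in males and a log2 fold change of 9.61 ± 0.18 (SE; adjusted p = 5.58e-16 by edgeR). Both stood next to a member of like read share, 128 and 102 CPM.

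The last 4 of the 10 differed in their female reads. The gene tetur31g01630 had 8 reads over the 4 female libraries, with 18 in tetur05g09250, 62 in tetur30g01370 and 520 in tetur06g06650. The genes tetur31g01630 (14.4 ± 0.5 CPM in males), tetur30g01370 (42.5 ± 3.8), tetur05g09250 (8.32 ± 1.59) and tetur06g06650 (153 ± 28) had log2 fold changes of 6.62, 5.30, 4.71 and 4.08. The adjacent members, tetur31g01640, tetur30g01380, tetur05g09260 and tetur06g06640, had 2 female reads each. Whether adjacent IDs are similar copies that share reads was not tested, as no sequence was used here. The division of the 10 was uneven over the level of the members: 7 of the 39 tested neighbours of members at 10 CPM or more (17.9%) were among them, and 3 of the 72 neighbours of members under 10 CPM (4.17%), a division made after the values were seen and not tested.

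Other members stood next to genes called higher in females by wide margins. The gene tetur10g05160 had 1, 1, 4 and 4 reads in male replicates 1 to 4 and 524, 363, 339 and 400 in female replicates 1 to 4, a log2 fold change of -7.38 ± 0.21 (SE; adjusted p = 4.00e-14 by edgeR). The ID after it, the member tetur10g05170, had 53, 98, 51 and 71 reads in males and 0, 0, 0 and 2 in females. The gene tetur02g12370 was likewise called higher in females, with 0.417 ± 0.184 CPM in males and 13.5 ± 1.1 in females (log2 fold change -4.93; adjusted p = 2.29e-12 by edgeR), one ID before the member tetur02g12390. The gene tetur12g03180 stood at 2.61 ± 0.50 CPM in males and 37.0 ± 3.0 in females (log2 fold change -3.86; adjusted p = 1.13e-13 by edgeR), next to the member tetur12g03170 with 25, 40, 35 and 24 reads in males and 1, 1, 1 and 0 in females.

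Most members were even among the 4 male pools. The ratio of the highest to the lowest male library had a median of 1.34 over the 89 genes and was below 1.5 in 60 of them. Among members at 10 CPM or more its median was 1.16. It was 1.15 in 6804 other tested genes that met the male limit, from 10 CPM up to the highest member level of 143 CPM. These others had a higher median level, 34.7 against 19.5 CPM. At 2 to 10 CPM the medians were 1.38 for members and 1.36 for 2861 other genes, and under 2 CPM they were 1.66 and 1.65. The spread grew with fewer reads in members and other genes alike.

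The most even members at 5 CPM or more were tetur02g06490, tetur02g08790, tetur07g05880 and tetur25g00480. The gene tetur02g06490 had 612, 959, 559 and 697 reads in male replicates 1 to 4, which came to between 44.7 and 46.2 CPM, a ratio of 1.03. The ratios of the other 3 were 1.05, 1.06 and 1.07. Such differences are small beside the SD of most members. The 4 genes were picked as the lowest ratios among the 43 members at 5 CPM or more. Whether their evenness goes beyond counting error was not tested.

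The gene tetur08g00240 stood apart. It had 398, 431, 659 and 105 reads in male replicates 1 to 4, or 29.0, 20.4, 54.4 and 6.77 CPM, and 0 reads in every female library. The highest male library was 8.04 times the lowest, whereas the next largest ratios among members at 5 CPM or more were 1.69 in tetur01g01310, 1.43 in tetur04g06930 and 1.39 in tetur02g00900. Male replicate 3 was highest and male replicate 4 lowest. The same held for 24 of the 44 tested genes above 5 CPM in males with at least a 3-fold difference among male libraries. It also held for 11 of the 89 members, and the share over all tested genes was not counted. The gene tetur08g00240 was the only member among those 44.

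Without tetur08g00240 the summed level of the members ranged from 1138 to 1168 CPM over the male libraries (1157 ± 13, SD, n = 4), against 1145 to 1212 CPM with it. The genes around it in ID order differed in how they varied among males. The ID before it, tetur08g00230, stood at 29.1 ± 0.5 CPM in males and 30.8 ± 2.3 in females and was not called. The gene tetur08g00260, 2 IDs after it, stood at 13.3, 10.8, 16.3 and 8.90 CPM in male replicates 1 to 4 and 8.88 ± 0.61 CPM in females and was not called (log2 fold change 0.45). Its male libraries had the same order as those of tetur08g00240, over a ratio of 1.83. Further along, tetur08g00210, tetur08g00220 and tetur08g00270 were called higher in females, with log2 fold changes of -6.26, -8.89 and -7.00. They stood at 3.55, 2.60 and 1.29 CPM in males and 277, 1203 and 163 CPM in females. Unlike tetur08g00240, each had its lowest male level in replicate 3, at 2.31, 0.908 and 0.826 CPM.

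**Figure D5:**
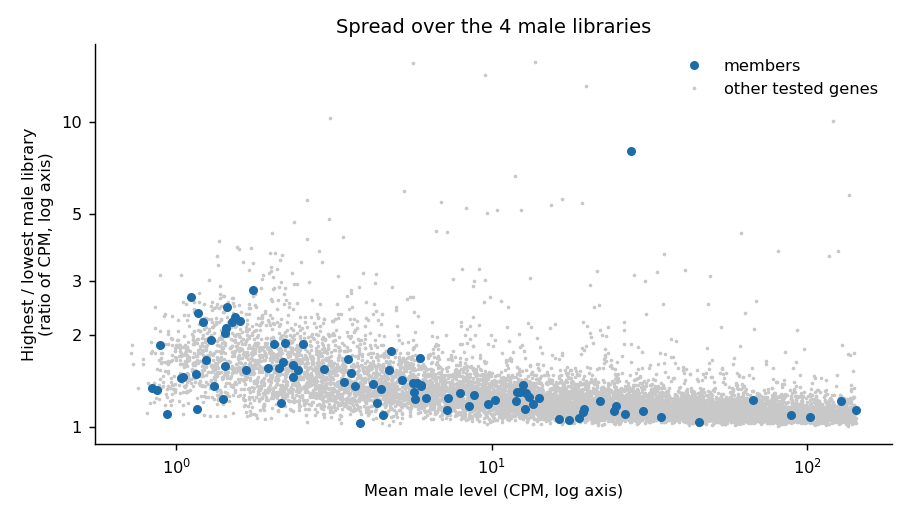
Ratio of the highest to the lowest of the 4 male libraries (vertical, log axis) against the mean male level in CPM (horizontal, log axis) for the 89 members (blue) and other tested genes that met the male limit (grey). The spread narrows with level in both, and tetur08g00240, at 27.7 CPM and a ratio of 8.04, lies highest of all members.

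Of the 11 members with a ratio of 2 or more, 10 were under 2 CPM, where 25 members stood. Of 891 other genes in the same class 170 (19.1%) had such a ratio, although the medians were alike and members had a slightly lower median level there, 1.28 against 1.45 CPM. Whether this goes with the lower read numbers was not tested. Male replicates 1 to 4 were the highest library for 27, 19, 33 and 10 members and the lowest for 23, 20, 17 and 29. The median level of a member relative to its male mean was 101%, 99.6%, 102% and 95.6% in the 4 replicates.

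The same limits with the sexes exchanged gave 53 female-limited genes with IDs of the same kind. The median level in the sex concerned was 4.73 CPM for the 89 male-limited genes and 2.42 CPM for the 53 female-limited ones, and the highest was 143 and 110 CPM. The share at 10 CPM or more was 31.5% and 30.2%. The share with 0 reads in the other sex was 32.6% and 26.4%. Another gene of the own set stood within 5 IDs for 28.1% of the male-limited and 15.1% of the female-limited genes. A gene of the larger set, 89 against 53, has more chances of such a neighbour, so these shares cannot be compared directly. Of the tested direct neighbours, 36.9% were called towards the own sex around male-limited genes and 50.7% of 67 around female-limited genes, in each case without genes of the own set, against backgrounds of 30.5% and 26.9%. None of these differences between the sets was tested.

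For the male-limited genes that the ID conditions left out, levels are set beside the median of 4.73 CPM of the 89. The 61 under tetur09 had a median of 3.67 CPM in males and at most 45.9 CPM, and 5 of them (8.20%) reached 10 CPM, against 31.5% of the 89. They had 0 female reads in 67.2% of cases, against 32.6% of the 89. The 15 others, with IDs not ending in 0, had a median of 5.43 CPM, and 2 of them (13.3%) reached 10 CPM. They had 0 female reads in 33.3% of cases. These differences were not tested either.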

How the data were processed

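The authors deposited raw counts, whole numbers of reads for each gene ID, for 8 libraries; the values carry no scaling. The submitters' processing notes name STAR 2.4.1d and HTSeq 0.6.1. The genome build, annotation, strand setting and handling of reads with several matches were not given in the sources used here, so reads of near copies or overlapping genes may be lost or shared. The table held 17654 IDs, 1513 of them without a read. The labels call the 4 libraries of a sex biological replicates but do not say that they came from separate cultures. The p-values therefore rest on differences among these pools, which may be technical.

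Males were compared with females in edgeR 4.0.16 (R 4.3.3) by the quasi-likelihood F test with sex as the one term, TMM scaling, filterByExpr and Benjamini-Hochberg adjustment over 12885 genes. A call needed an adjusted p below 0.05 and a fold of at least 2. Fold changes are male minus female. Ratios use summed reads over scaled library sizes with exact 95% binomial intervals, or a floor of 3 reads over the 4 libraries of a sex. The test was also run on simulated counts (12710 genes fitted), scored at an adjusted p below 0.05 without the minimum on the fold. It recovered 38, 46, 50 and 50 of 50 genes changed 1.5-, 2-, 4- and 8-fold, with 16 false calls. These numbers therefore do not describe calls that also need the fold minimum.

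Members, lists and rules were chosen with earlier results of these data known. Named genes were the 10 most abundant members, those nearest the male limit on either side, the 4 most and 4 least even at 5 CPM or more, the 3 largest groups in ID order (members at most 5 IDs apart), and the 3 called neighbours at 10 CPM or more with the highest and the lowest fold change. Genes named beyond these (the other IDs of the stretches described, the remaining neighbours of high fold change, the genes around tetur08g00240 and tetur114g00040) were chosen after their values were seen. Gene lists by function could not be filled, as 0 IDs matched the gene table.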

Additional observations from a re-analysis of the deposited data

How the results depend on the processing

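The number of members depends on its limits. It was 29 with no female read allowed, 227 with up to 10, and 47 with at least 50 reads in each male library. It stayed within 1.5 times 89 with 20 or 5 reads per male library (65 and 133), with limits set as levels (68) and with libraries thinned to 12082575 reads (93, of which 81 were shared). Leaving out 1 library at a time gave 89 to 121 members, since fewer libraries make the limits easier to meet. With a window of 1 ID in place of 5, 15 members had another beside them. The filter at 5 CPM in 4 libraries tests 10235 genes and left 37 members, all of them called. The other settings were 3 scalings, no filter, DESeq2 1.42.0, limma-voom with limma 3.58.1, other definitions of a neighbour, and leaving out each library. Every count of calls or neighbours stayed within 1.5 times its reported value under these, and so did each count not named above. One definition of a neighbour, with IDs ending in 0 alone, gave the reported 152 IDs and 111 tested genes again, so it is no separate check. Upper quartile scaling called 4456 genes towards males and 3011 towards females (59.7% of calls towards males), against 3935 and 3467 as reported, and its median over all tested genes was 0.27 on the log2 scale, against 0.05. The 31 named genes followed over the settings were members or neighbours of members. They kept their direction and call in all 485 values from 16 settings. The members were chosen by the counts of the sexes and the neighbours for extreme fold changes, so nothing is read from this. A gene had no value in a setting whose filter removed it, so not every gene was tested in every setting. The median ratio among male libraries was 1.21 to 1.27 with 1 male library left out, against 1.34 with all of them. For a given gene this ratio cannot rise when a library is left out, so these values do not show how stable it is. No pairing was taken from the replicate numbers, since deviations of same-numbered males and females correlated at -0.0926, 0.0017, 0.019 and 0.035, and just 1 sample of 8 had its best correlation with the same number. A replicate block gave 3932 calls towards males and 3472 towards females, with all 88 tested members called. At this depth, 3 female reads limit what near absence can mean for genes at the lower end of the set.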

Other observations

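Some members stood under ID prefixes with very few IDs. Among the prefixes with a member, tetur461, tetur491 and tetur619 held a single ID in the table, the member itself. Prefixes with a single ID and no member were not counted, so no share of such prefixes is given. The gene tetur461g00010 had 40, 47, 23 and 42 reads in male replicates 1 to 4 and 1, 1, 1 and 0 in female replicates 1 to 4. The gene tetur491g00010 had 11, 23, 13 and 18 reads in males and 0 in females, and tetur619g00010 had 96, 132, 62 and 85 in males and 0 in females. Under tetur108, tetur123 and tetur68, with 4, 6 and 4 IDs, the member was the only ID with at least 10 reads in each male library. Prefixes with 3 digits held 6 of the 89 members (6.74%) and 548 of all 17654 IDs (3.10%). These IDs were singled out after their values were seen, and the difference in shares was not tested.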
